A study of Caenorhabditis elegans with 2 samples.

Results

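The innexins are the proteins of invertebrate gap junctions, channels that join the cytoplasm of neighbouring cells and let ions and small molecules pass between them. They are a family of their own, unrelated in sequence to the connexins of vertebrates, and most tissues of the nematode Caenorhabditis elegans use their own combination of family members. In the intestine, gap junctions carry the calcium wave that times the defecation cycle, and in the gonad they couple the somatic sheath to the germ line. The account covers 10 innexin genes chosen by name: inx-15 and inx-16, known from the intestine, and inx-2, inx-3, inx-6, inx-8, inx-9, inx-12, inx-13 and inx-14, known mainly from other tissues or from several. They are 10 of the 25 innexin genes considered and of 19985 annotated protein-coding genes, and the other 15 innexins are set beside them.

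RNA 3' ends were sequenced from 1 library of nuclei sorted by fluorescence, with the labels intestine and nuclear RNA, and from 1 library of unsorted input nuclei, with the labels mixed tissues and total RNA. Both are of strain JM149, from mixed-stage liquid cultures kept at 25 °C and enriched for adults with a strainer, and the difference in molecule cannot be told apart from the sort. From outside the labels, JM149 is known to carry a transgene in which the promoter of the intestinal GATA factor gene elt-2 drives a nuclear fluorescent protein followed by the unc-54 3' end, together with a dominant rol-6 marker. With 1 library per group there is no replicate check and no test between the groups. All intervals are 95% intervals of counting error alone and take each read as independent. Reads amplified by PCR and carrying no molecular identifiers do not count independent molecules, so the intervals can be too narrow.

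The sorted library had 4709432 reads and the input library 9243831, with 4571685 sorted and 9094297 input reads assigned to protein-coding genes. Levels are in RPM, reads per 1000000 gene-assigned reads. Each read was taken as 1 transcript end, so levels are not divided by gene length. Priming inside A-rich stretches of a transcript could also give reads, some of which lay in coding sequence or introns, and it was not tested. A gene without reads could still be present at up to 3 reads, or 0.656 RPM in sorted and 0.330 RPM in input nuclei. Of 12 intestine markers 11 were found and 10 had at least 20 reads. Of these 7 lay wholly above 2-fold in sorted nuclei, against 13.6% of the 10814 protein-coding genes with as many reads. Wholly below 0.5 lay 1, erm-1, at 0.417 (0.377 to 0.461), against 4.13% of these genes. Marker counts of other tissues below are to be read against the same shares. The gut esterase gene ges-1 had a ratio of sorted over input of 3.26 (3.10 to 3.44), elt-2 one of 3.20 (2.47 to 4.17) and the intestinal actin gene act-5 one of 1.57 (1.55 to 1.59). Markers of other tissues were still present: of 52 found for 7 other tissues, 1, fkh-6 of the gonad sheath list, was at 0 in sorted nuclei, where input nuclei had 1 read. Some rested on few sorted reads, with 1 each for rab-3 and lin-48 and 3 each for ceh-22 and exc-9.

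The intestinal innexins inx-15 and inx-16 were far higher in sorted nuclei, and the other listed innexins with enough reads stood between 0.506 and 1.09 of their input level. To be called, a gene needed 20 reads over both libraries and an exact interval of its ratio that lay wholly past 2-fold, and calls past 4-fold are given as well. Of the 10 listed genes 9 had enough reads, and 2 of these 9 were called higher at 2-fold, against 13.6% of the 10814 protein-coding genes with enough reads. No listed gene, 0 of 9, was called lower, against 4.13% of all. At 4-fold the same 2 genes were called higher, against 4.69% of all, and 0 lower, against 0.314%. The median log2 ratio was 0.07 over the 9 genes and 0.04 over all. In bulk nuclei, fewer cells of a type and less RNA per cell cannot be told apart.

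**Figure D1:**
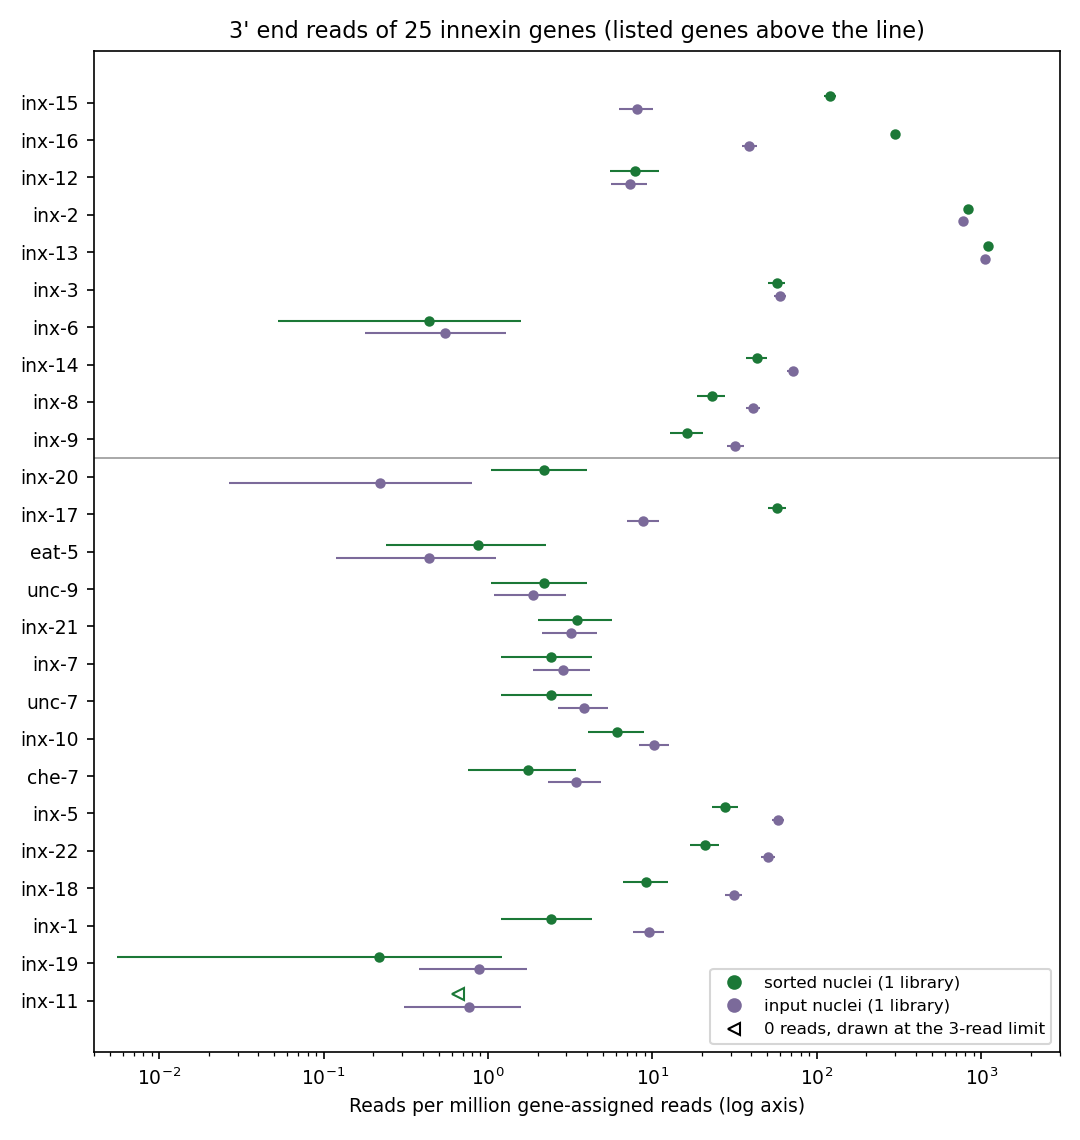
Level of 25 innexin genes in RPM on a log axis, with sorted nuclei (green) above input nuclei (purple) in each pair and exact 95% counting intervals. Of the 10 listed genes above the line, inx-15 and inx-16 lie far to the right in sorted nuclei, at 121 and 297 RPM, against 8.03 and 38.8 RPM in input nuclei.

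The inx-15 gene (WBGene00002137) lies on the minus strand of chromosome I, from 4159014 to 4161113 in WBcel235. It had 551 reads in sorted nuclei and 73 in input nuclei, or 121 RPM in sorted and 8.03 RPM in input nuclei. The ratio was 15.01 (11.7 to 19.4), and 116 of the 10814 genes had a higher log2 ratio. The inx-16 gene (WBGene00002138) encodes an innexin needed for the calcium wave to spread between intestinal cells. It lies beside inx-15 on the plus strand, from 4162035 to 4165025, with 921 nt between the divergent genes. It had 1356 reads in sorted nuclei and 353 in input nuclei, or 297 RPM in sorted and 38.8 RPM in input nuclei, a ratio of 7.64 (6.79 to 8.62).

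The level intervals of sorted and input nuclei lay far apart for both genes. Within the pair the ratio of inx-15 was 1.96 times that of inx-16 (1.50 to 2.58). With each position counted once the ratios were 2.43 (1.30 to 4.69) for inx-15 and 2.17 (1.30 to 3.69) for inx-16, with overlapping intervals. By level the order was the other way round, with inx-16 above inx-15 in sorted and in input nuclei.

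The gene on the far side of inx-16, inx-17, is not a listed gene but had a like ratio. It starts 49 nt past the annotated end of inx-16 on the same strand and runs from 4165075 to 4167056. It had 263 reads in sorted nuclei and 80 in input nuclei, or 57.5 RPM in sorted and 8.80 RPM in input nuclei, a ratio of 6.54 (5.07 to 8.51). The ratio of inx-17 over that of inx-16 was 0.856 (0.649 to 1.13), an interval that holds 1. Most inx-17 reads, 206 in sorted and 55 in input nuclei, lay within 24 nt of an annotated end of inx-17 itself. Among all 25 innexins 20 had enough reads and 3 were called higher, the neighbours inx-15, inx-16 and inx-17, a share near the 13.6% of all genes. Counting no reads beyond the annotated end gave no value for inx-17, and with the highest position of each gene left out its ratio was 4.92 (3.54 to 6.92), no longer called at 4-fold.

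**Figure D2:**
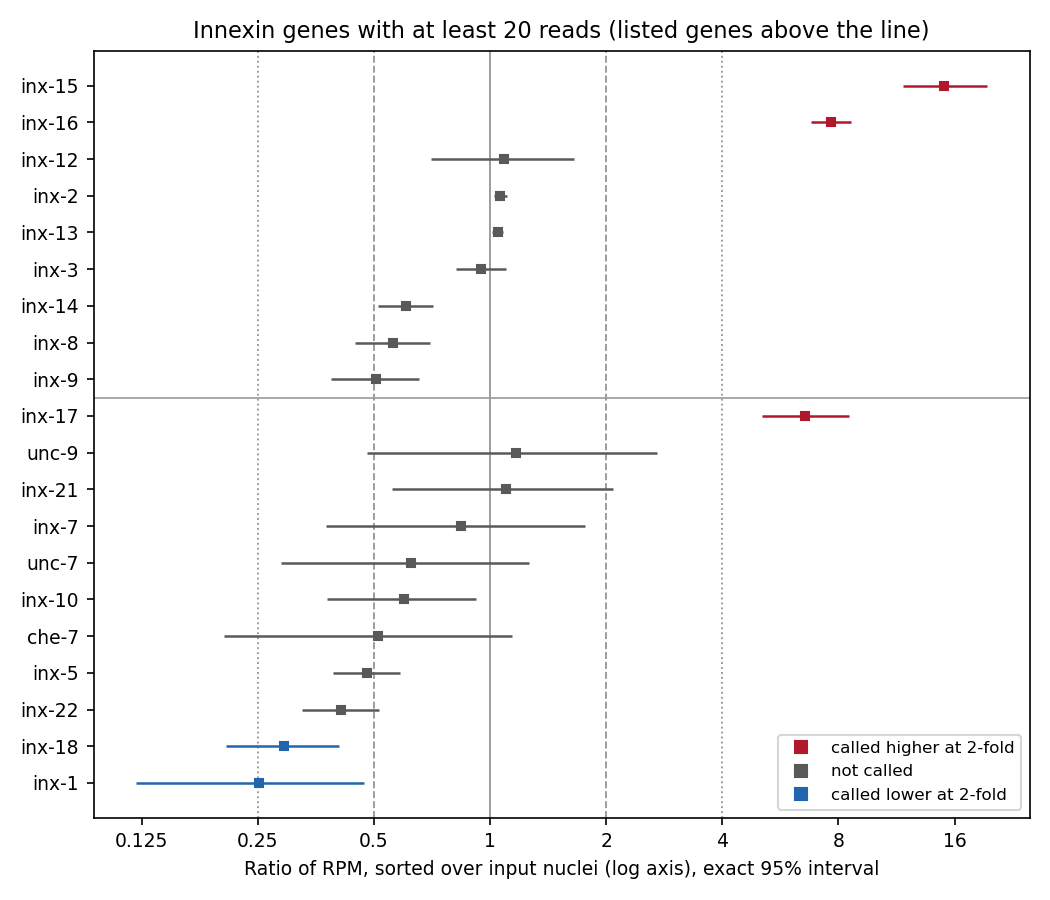
Ratio of levels, sorted over input nuclei, for the 20 innexins with at least 20 reads, on a log axis with exact 95% intervals. The intervals of inx-15, inx-16 and inx-17 lie wholly above 4, and those of inx-1 and inx-18 wholly below 0.5.

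Setting the intestinal genes against each other listed gene removes the scaling of the libraries. The ratio of inx-15 was between 13.8 (8.62 to 22.2) times that of inx-12 and 29.7 (20.9 to 42.3) times that of inx-9. The ratio of inx-16 was between 7.04 (4.62 to 10.7) times that of inx-12 and 15.1 (11.4 to 20.002) times that of inx-9. In all 14 such comparisons, with 7 other listed genes, the interval lay above 4. They reuse the counts of inx-15 and inx-16 and follow from the ratios of the single genes, so they are not separate results.

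The most abundant innexins in both libraries were inx-13 and inx-2, and the level of each was close between the libraries. The inx-13 gene, needed in the excretory canal, lies on chromosome I from 3748523 to 3753958. It had 5056 reads in sorted nuclei and 9612 in input nuclei, or 1106 RPM in sorted and 1057 RPM in input nuclei, a ratio of 1.05 (1.01 to 1.08). The inx-2 gene, on chromosome X from 11295007 to 11296733, had 3774 reads in sorted nuclei and 7063 in input nuclei, or 826 RPM in sorted and 777 RPM in input nuclei, a ratio of 1.06 (1.02 to 1.11). Both intervals lie just above 1 and far inside 2-fold. The log2 ratios were 0.07 for inx-13 and 0.09 for inx-2, while TMM scaling shifted every log2 ratio by -0.038. With TMM scaling the intervals were 0.985 to 1.05 for inx-13 and 0.995 to 1.08 for inx-2, and both hold 1. Both genes stood above inx-16 by level in sorted nuclei, although neither was called.

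The inx-12 gene, needed in the excretory canal like inx-13, lies 1529 nt from it on the same strand, from 3755488 to 3759039, and was far rarer. It had 36 reads in sorted nuclei and 66 in input nuclei, or 7.87 RPM in sorted and 7.26 RPM in input nuclei, a ratio of 1.09 (0.702 to 1.65). The ratio of inx-12 over that of inx-13 was 1.04 (0.690 to 1.56), so a difference between these neighbours was not detectable at this depth. Of 6 excretory markers 5 had enough reads and 0 were called, with a median log2 ratio of -0.9997 and summed levels of 54.5 RPM in sorted and 98.6 RPM in input nuclei. The most abundant of them, vha-5, had a ratio of 0.543 (0.447 to 0.655), while exc-4 stood on the other side, at 3.55 (1.78 to 7.39). Of 8 hypodermis and cuticle markers 1 was called higher (rol-6, at 2.29) and 3 lower, with a median of -1.05, and the collagen gene col-19 stood at 0.215 (0.207 to 0.223).

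The inx-3 gene, which acts in the embryo, the pharynx and other tissues, lies on chromosome X from 5996156 to 5998243. It had 260 reads in sorted nuclei and 546 in input nuclei, or 56.9 RPM in sorted and 60.04 RPM in input nuclei, a ratio of 0.947 (0.814 to 1.1000). Its intervals overlap between the libraries. The pharyngeal muscle innexin inx-6, on chromosome IV from 12746584 to 12749721, had 2 reads in sorted nuclei and 5 in input nuclei, too few to be called. Both sorted reads of inx-6 lay at 1 position in the coding sequence, at -735 nt from its annotated end, while 4 of the 5 input reads lay at the end. Of 8 pharynx markers 7 had enough reads and 1 was called lower, phat-2 at 0.419 (0.372 to 0.471), with a median log2 ratio of -0.75. On the other side stood pha-4, at 3.07 (1.75 to 5.52), which was not called.

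The gonad genes inx-14, inx-8 and inx-9 were lower in sorted nuclei by less than the rule asks. In the germ line inx-14 takes part in channels that face the somatic sheath, where inx-8 and inx-9 form the partner channels. The inx-14 gene, on chromosome I from 7350309 to 7352235, had 197 reads in sorted nuclei and 648 in input nuclei, or 43.1 RPM in sorted and 71.3 RPM in input nuclei. Its ratio was 0.605 (0.513 to 0.710). The inx-8 gene, on chromosome IV from 11673843 to 11675635, had 105 reads in sorted nuclei and 372 in input nuclei, or 22.97 RPM in sorted and 40.9 RPM in input nuclei, a ratio of 0.561 (0.448 to 0.699). Its neighbour inx-9, which follows after 718 nt on the same strand from 11676354 to 11678497, had 74 reads in sorted nuclei and 291 in input nuclei, or 16.2 RPM in sorted and 32.0 RPM in input nuclei, a ratio of 0.506 (0.386 to 0.655).

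All 3 intervals exclude 1, and those of inx-8 and inx-9 reach past 0.5 without lying wholly below it. The ratio of inx-8 over that of inx-9 was 1.11 (0.794 to 1.55), so a difference within the sheath pair was not detectable. These 2 genes are alike in sequence, and how the authors treated reads with several matches is not known here, so their counts are uncertain. Against inx-13, the ratio of inx-14 was 0.578 (0.491 to 0.680), that of inx-8 0.537 (0.431 to 0.668) and that of inx-9 0.483 (0.374 to 0.625).

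Summed levels of the germ line and sheath markers were also lower in sorted nuclei, with single markers on either side. The 8 germ line markers summed to 7599 RPM in sorted and 21856 RPM in input nuclei, with a median log2 ratio of -1.01. Most of both sums came from perm-4 and cpg-1, with 4930 and 2126 RPM in sorted and 16065 and 4508 RPM in input nuclei. Of the 8 markers perm-4, at 0.307 (0.303 to 0.311), mex-3 and cpg-1 were called lower and gld-1 higher, at 3.20 (2.396 to 4.29). The 6 sheath and spermatheca markers summed to 38.5 RPM in sorted and 70.04 RPM in input nuclei, with 4 measured, 0 called, a median of -0.65 and fln-1 at 0.441 (0.348 to 0.554). In that list ipp-5 stood on the other side, at 2.05 (1.23 to 3.41), and the interval of tnc-2, at 0.900 (0.494 to 1.58), holds 1. The part of germ line and sheath nuclei in the sorted levels of inx-8, inx-9 and inx-14 was not tested.

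The order of levels among the 10 listed genes differed between the libraries. In sorted nuclei it ran inx-13, inx-2, inx-16, inx-15, inx-3, inx-14, inx-8, inx-9, inx-12 and inx-6. There the neighbours inx-8 (18.8 to 27.8 RPM) and inx-9 (12.7 to 20.3 RPM) had overlapping intervals, and no other neighbours did. In input nuclei the order was inx-13, inx-2, inx-14, inx-3, inx-8, inx-16, inx-9, inx-15, inx-12 and inx-6. There inx-16 (34.9 to 43.1 RPM) overlapped with inx-8 (36.9 to 45.3 RPM) and with inx-9 (28.4 to 35.9 RPM), and inx-15 (6.29 to 10.1 RPM) with inx-12 (5.61 to 9.23 RPM). The intestinal pair thus stood directly below inx-2 in sorted nuclei, while in input nuclei inx-14, inx-3 and inx-8 came before inx-16, and inx-9 before inx-15.

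As a share of all reads of the 10 genes, 11411 in sorted and 19029 in input nuclei, inx-15 and inx-16 together held 16.7% (16.03 to 17.4) in sorted and 2.24% (2.03 to 2.46) in input nuclei. The gonad genes inx-8, inx-9 and inx-14 held 3.30% (2.98 to 3.64) in sorted and 6.89% (6.53 to 7.26) in input nuclei. The abundant inx-2 and inx-13 held 77.4% (76.6 to 78.1) in sorted and 87.6% (87.2 to 88.1) in input nuclei. Without inx-2 and inx-13, the intestinal pair made up most of the reads in sorted nuclei, 73.9% (72.1 to 75.6), against 18.1% (16.6 to 19.7) in input nuclei. The gonad genes then made up 14.6% (13.2 to 15.99) in sorted nuclei and most of the reads in input nuclei, 55.7% (53.7 to 57.7).

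**Figure D3:**
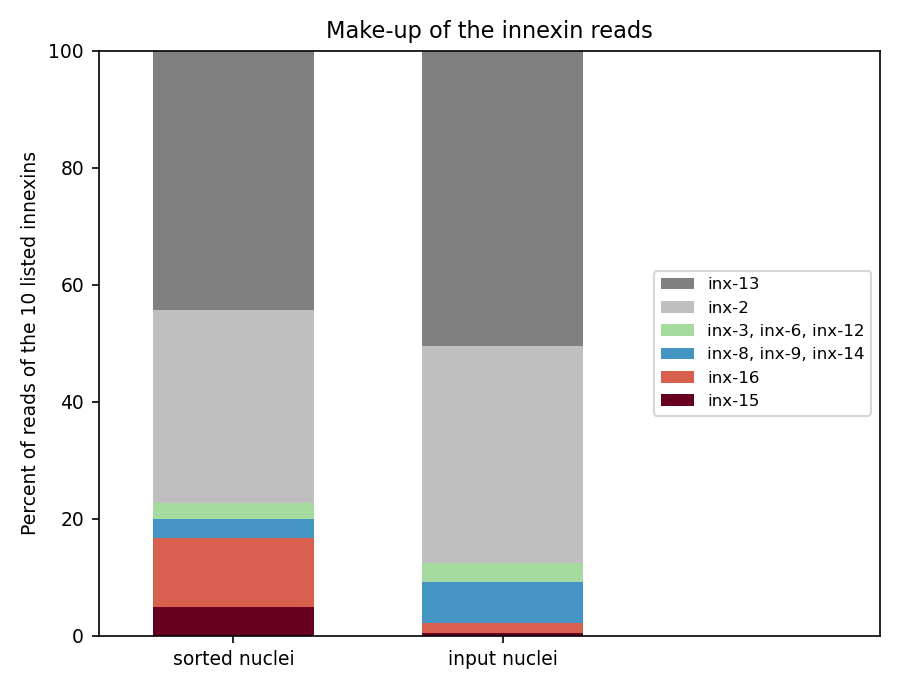
Percent of the reads of the 10 listed innexins held by each gene or group, with sorted nuclei left of input nuclei. The inx-15 and inx-16 segments add up to 16.7% in sorted and 2.24% in input nuclei, and inx-2 and inx-13 hold most of the reads in both.

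Of the other 15 innexins 11 had enough reads, with a median log2 ratio of -0.72, and at 2-fold 1 of them, inx-17, was called higher, against 13.6% of all genes, and 2 lower, against 4.13%. The inx-18 gene had 42 reads in sorted nuclei and 285 in input nuclei, a ratio of 0.293 (0.207 to 0.406). The inx-1 gene had 11 reads in sorted nuclei and 87 in input nuclei, a ratio of 0.252 (0.121 to 0.473). At a single position of inx-1, in its 3' untranslated exon 396 nt past the nearest annotated end, lay 1 of the sorted reads and 50 of the input reads. With the highest position of each gene left out, the ratio of inx-1 was 0.528 (0.234 to 1.08) and the gene was not called, while inx-18 still was.

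The germ line innexins beside inx-14 are inx-22 and inx-21, which lie 97 nt apart. The inx-22 gene had 95 reads in sorted nuclei and 459 in input nuclei, a ratio of 0.412 (0.327 to 0.515), which narrowly missed the rule. The ratio of inx-14 was 1.47 (1.12 to 1.93) times that of inx-22. For inx-21, with 16 reads in sorted nuclei and 29 in input nuclei, the ratio was 1.098 (0.557 to 2.09), an interval that also covers the ratio of inx-14. The inx-5 gene had 127 reads in sorted nuclei and 527 in input nuclei, a ratio of 0.479 (0.392 to 0.583).

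The innexins unc-7 and unc-9, known from neurons and muscle, were rare in both libraries. The unc-7 gene, of electrical synapses, had 11 reads in sorted nuclei and 35 in input nuclei, a ratio of 0.625 (0.286 to 1.26). The unc-9 gene, of synapses and body wall muscle, had 10 reads in sorted nuclei and 17 in input nuclei, a ratio of 1.17 (0.479 to 2.71). Both intervals hold 1. Of 8 neuron markers 5 had enough reads, with a median log2 ratio of 0.10 and 1, the synaptic vesicle gene snb-1, called higher at 2.44 (2.22 to 2.69). Of 8 body wall muscle markers unc-54 was called higher at 2.67 (2.42 to 2.94) and tni-1 lower at 0.415, with a median of -0.10 and the most abundant, unc-27, at 0.576 (0.557 to 0.595). The part of the transgene in the reads of rol-6 and unc-54 was not tested.

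The remaining measured innexins were inx-10 at 0.599 (0.378 to 0.922), inx-7 at 0.842 (0.375 to 1.76) and che-7 at 0.513 (0.204 to 1.14), none called. Too rare to be measured were inx-20, with 10 reads in sorted nuclei and 2 in input nuclei, eat-5 of pharyngeal muscle, with 4 in sorted and 4 in input nuclei, inx-19, with 1 in sorted and 8 in input nuclei, and inx-11, with 0 in sorted and 7 in input nuclei.

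**Figure D4:**
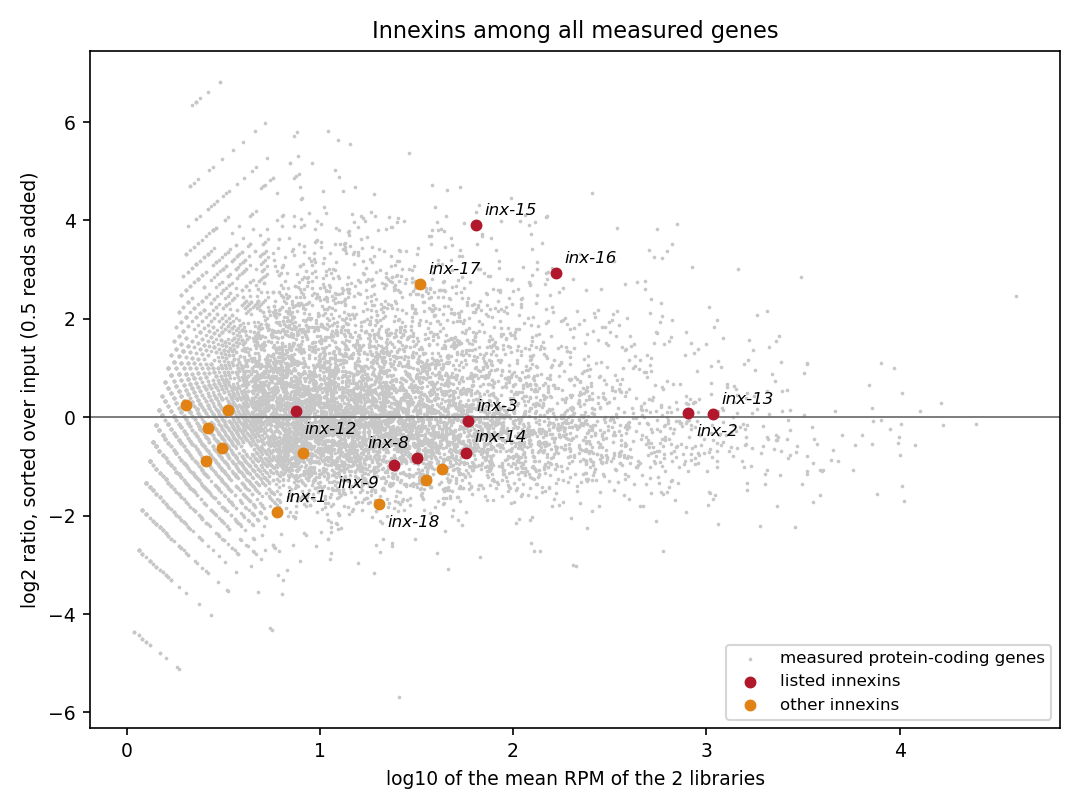
Log2 ratio of sorted over input nuclei against the log10 of the mean RPM of both libraries, for 10814 protein-coding genes (grey), the listed innexins (red) and the other innexins (orange). The points of inx-15, inx-16 and inx-17 lie at log2 ratios of 3.90, 2.93 and 2.70, and those of inx-2 and inx-13 near 0 among the abundant genes.

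Most listed innexins had 1 main place of 3' ends, shared by both libraries. Ends were grouped into sites reaching 24 nt to either side of a local maximum, and sites with 5% or more of a gene's ends in one of the libraries were kept. A shift was a difference in share of 20 percentage points or more with exact intervals apart, among genes with 20 reads in each library. All 9 listed genes with enough reads qualified, and 3 of them, inx-3, inx-12 and inx-15, had several sites. Of all 14 innexins that qualified 7 had several sites and 0 of these a shift, against 16.4% of the 3980 genes with several sites in the whole data. So few genes do not allow that count to be read against the share. Smaller differences with intervals apart were present in inx-15 and inx-17. In inx-1 and che-7, with 11 and 8 sorted reads, shares differed by more than 20 points with intervals apart, but the genes had too few reads to qualify. Other innexins with too few reads also had differences above 20 points, but with overlapping intervals.

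In inx-15 most ends lay at a pair of positions, 4159017 and 4159008 in the files' coordinates, which are -2 and 7 nt from the annotated end. The first had 208 reads in sorted nuclei and 30 in input nuclei, a ratio of 13.8 (9.38 to 20.96). The second had 197 reads in sorted nuclei and 21 in input nuclei, a ratio of 18.7 (11.9 to 30.8). Both positions thus carried the difference in level. A minor site lay 97 nt before the end, in the coding sequence, with 27 reads or 4.90% (3.25 to 7.05) in sorted nuclei and 11 reads or 15.1% (7.77 to 25.4) in input nuclei. The main site held 94.2% (91.9 to 95.99) in sorted and 80.8% (69.9 to 89.1) in input nuclei. The intervals lie apart for both sites, but the differences are below 20 points and the input share of the minor site rests on 11 reads.

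In inx-16 a single site held 96.2% of the reads in sorted nuclei and 96.03% in input nuclei. Its highest position, 4165029, had 747 reads in sorted nuclei and 162 in input nuclei, a ratio of 9.17 (7.73 to 10.9). At 4165024 in the same site there were 30 reads in sorted nuclei and 25 in input nuclei, a ratio of 2.39 (1.36 to 4.23). The ratio was above 1 at both positions, and the intervals do not overlap. In inx-17 the site at the annotated end held 78.3% (72.9 to 83.2) of the reads in sorted and 68.8% (57.4 to 78.7) in input nuclei, and one 259 nt further on held 16.3% (12.1 to 21.4) in sorted and 15% (7.998 to 24.7) in input nuclei. A site of inx-17 between them, 178 nt past the end, held 2.66% (1.08 to 5.41) in sorted and 12.5% (6.16 to 21.8) in input nuclei, with intervals apart and a difference below 20 points.

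**Figure D5:**
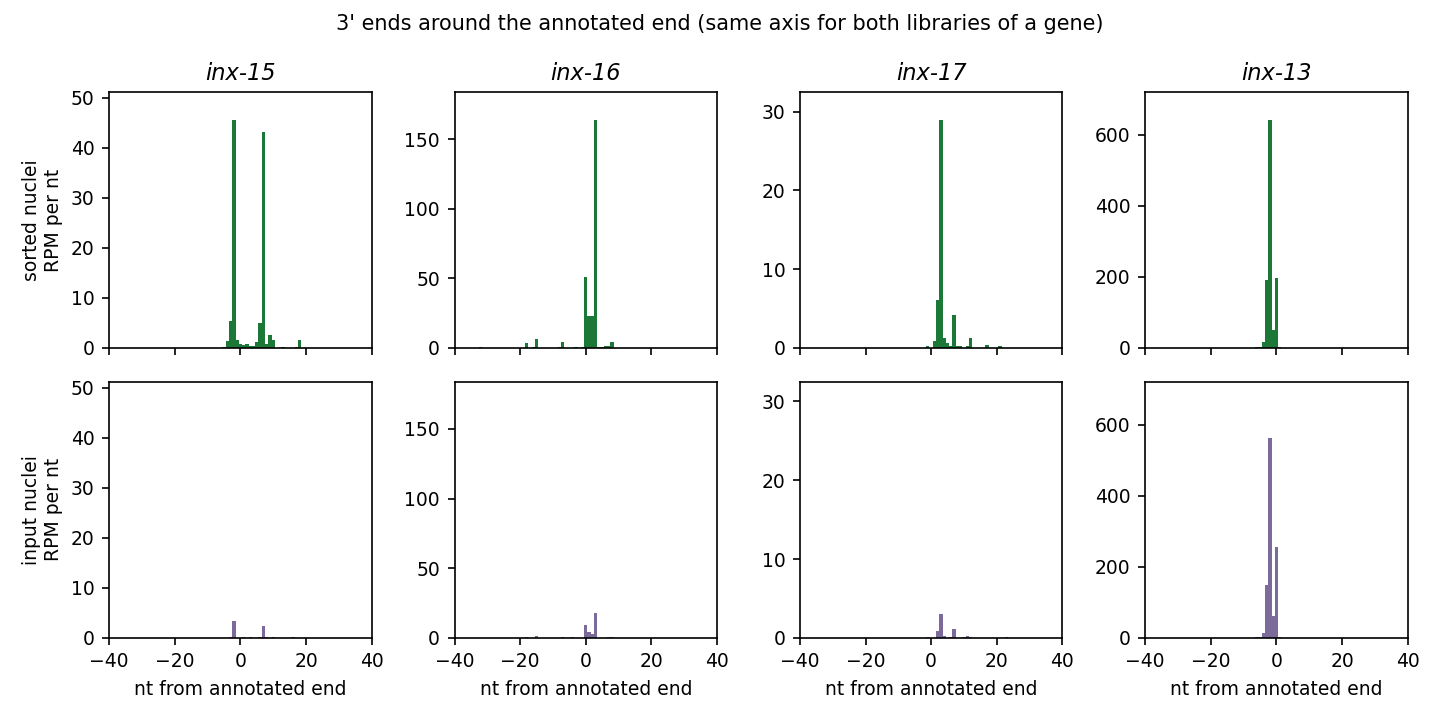
3' ends in RPM per nt against distance from the annotated end in nt, upstream negative, for 4 innexins, with sorted nuclei in the upper and input nuclei in the lower row and the same vertical axis for both libraries of a gene. The inx-15 ends form peaks at -2 and 7 nt in both libraries, and the inx-13 profiles are of like height.

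The abundant innexins ended at 1 site in both libraries, with small differences between positions inside it. In inx-13 the site held all but 2 reads in sorted and 9 in input nuclei. Its highest position, 3748527, had a ratio of 1.14 (1.09 to 1.19), and 3748525 had one of 0.763 (0.706 to 0.825). The second position held 17.7% (16.7 to 18.8) of the gene's reads in sorted and 24.3% (23.4 to 25.1) in input nuclei. The highest position held 57.9% (56.5 to 59.3) in sorted and 53.3% (52.3 to 54.3) in input nuclei, also with intervals apart. In inx-2, inx-8 and inx-9 the main site held at least 98.4% of the reads in each library, and in inx-14 it held 93.9% in sorted and 95.7% in input nuclei. The minor site of inx-3, 91 nt before the annotated end, held 8.08% (5.07 to 12.1) in sorted and 11.2% (8.65 to 14.1) in input nuclei, and the main site of inx-12 held 80.6% (63.98 to 91.8) in sorted and 75.8% (63.6 to 85.5) in input nuclei. Apart from the single positions of inx-13, the intervals of these shares overlap between the libraries. Single positions inside sites are given here for inx-13 alone, and inx-2, inx-3 and inx-12 also had some with intervals apart.

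Of 12 genes known from the defecation rhythm in which inx-16 acts, 11 had enough reads, 6 were called higher at 2-fold, against 13.6% of all genes, and 0 lower, against 4.13%, and the median log2 ratio was 1.80, against 0.04 over all genes. The gene of the calcium release channel itr-1 had a ratio of 3.50 (2.18 to 5.72), and the cation channel genes gon-2 and gtl-1 ratios of 3.37 (2.23 to 5.14) and 3.88 (3.26 to 4.62). The potassium channel genes kqt-2 and kqt-3 had ratios of 6.76 (5.16 to 8.96) and 10.3 (5.90 to 19.4), and the proton exchanger gene pbo-4 one of 6.20 (5.58 to 6.91). The list's most abundant gene, nlp-40, which encodes a peptide released by the intestine, stood at 0.868 (0.835 to 0.902) and was not called. Lowest was plc-3, at 0.442 (0.109 to 1.34), with 4 reads in sorted and 18 in input nuclei, and it was not called. Also not called were pbo-5 at 1.17 (0.638 to 2.09), unc-43 at 1.396 (1.196 to 1.63) and aex-5 at 3.98 (1.78 to 9.52). The intervals of plc-3 and pbo-5 hold 1. Likeness to inx-15 and inx-16 was taken as the sum over both libraries of the absolute differences in log2(RPM + 1). By that measure T03E6.8, C06B8.2 and ttr-37 were closest to inx-15, at 0.046, 0.25 and 0.31, and best-5, pfut-1 and cln-3.3 closest to inx-16, at 0.22, 0.23 and 0.24.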

How the data were processed

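The authors deposited, for each library, unscaled whole-number counts of reads per position and strand. TopHat is the 1 tool in the submitters' processing notes, and its version, the build, the filters and the treatment of reads with several matches were not given in the sources used here. Per the labels' protocols, cDNA was primed with oligo(dT), amplified as antisense RNA and then by 12 PCR cycles. The positions do not match WBcel235, so in each of 203 windows of 0.5 Mb the commonest offset from positions with at least 10 reads to annotated protein-coding 3' ends (Ensembl release 115) was added, for gene assignment alone. It was -7 to 120 nt in 200 windows and 4611 or 4612 nt in 3. Pairs of a position and an annotated end within 3 nt of this offset numbered a median of 41.8% of the positions. A position near several annotated ends is counted several times in that value. Gene coordinates are those of WBcel235 and positions of ends those of the files. A gene's reads are those on its strand within its span and 300 nt beyond, and a position in several genes went to the one with the nearest annotated end. Log2 ratios had 0.5 reads added per library. Ratios and shares have exact Clopper-Pearson intervals, levels exact Poisson intervals, and comparisons of ratios between genes Wald intervals on the log scale. The procedure was tested on simulated data, drawn as Poisson counts without PCR copies, so that test could not show the effect of such copies. Alternatives covered the library size (all reads, DESeq2 1.42.0 size factors, or TMM factors from edgeR 4.0.16), read minimums, gene extension, which reads count, window size and site width. Python 3.11.15 and scipy 1.17.1 were used. Genes, lists and tests were chosen with earlier results of these data known. Named by rule were the listed and all measured innexins, the 3 genes most like inx-15 and inx-16, called defecation genes, the most abundant marker of each list, ges-1 and elt-2. Other genes were named after their values were seen. The marker opt-2 had no match in the annotation. Sequences were not used here.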

Additional observations from a re-analysis of the deposited data

How the results depend on the processing

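No paired analysis was possible because each group has 1 library. TMM, median-of-ratios and all-read scaling shifted every log2 ratio by -0.038, -0.038 and -0.019. In 13 of 14 alternatives inx-15 and inx-16 were called higher at 2-fold, and over all 14 their ratios ran between 2.43 and 18.3 and between 2.17 and 8.00. The exception counted each position once, so that a position gives at most 1 read per library. It gave 2.43 (1.30 to 4.69) for inx-15 and 2.17 (1.30 to 3.69) for inx-16, and 0 of the listed and 0 of the 25 innexins were then called higher at 2-fold or 4-fold and 0 of the 25 lower, against 28 higher genes, or 0.490%, in the whole data. It also turned inx-13 to 0.759 (0.385 to 1.44) and inx-14 to 1.08 (0.548 to 2.09). With reads within 24 nt of an annotated end alone, 1 of the 25 was called lower, against 3.57% of all genes. There inx-3 turned to 1.03 (0.878 to 1.21). With the highest position of each gene left out, 1 of the 25 was called lower, against 3.14% of all genes. That setting turned inx-13 to 0.926 (0.879 to 0.975). It also took inx-17 to 4.92 (3.54 to 6.92), which left 2 of the 25 higher at 4-fold, against 325 of 8722 genes. With no extension past the annotated end inx-17 gave no value. Then 2 of the 25 were higher at 2-fold, against 13.1% of 9238 genes, and the same 2 at 4-fold, against 408 genes. With no read minimum 4 of the 25 were higher at 2-fold, inx-20 among them, against 10.1% of 16933 genes. Sites of 10 nt to either side gave 1 innexin with a shift, inx-10, and the share of all genes was not computed for that width. For inx-3, inx-13 and inx-14, which turned direction and were not called, the cause was not tested. Depth limits inx-6, eat-5, inx-11, inx-19 and inx-20.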

Other observations

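Reads on the strand opposite an innexin, within its span and 300 nt beyond, were not counted for it. There were 1 in sorted and 1 in input nuclei for inx-15, and 6 in sorted and 0 in input nuclei for inx-16. They outnumbered the gene's own reads at inx-10, with 3115 in sorted and 3237 in input nuclei, at inx-20, with 1132 in sorted and 852 in input nuclei, at inx-11, with 91 in sorted and 173 in input nuclei, and at eat-5, with 11 in sorted and 22 in input nuclei. At inx-3 they numbered 426 in sorted and 429 in input nuclei, beside 260 sorted and 546 input reads of its own.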
